A study of Mus musculus with 10 samples.

Results

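The enzymes that make and break down heme were followed in interscapular brown adipose tissue (iBAT) by RNA sequencing. The 9 genes were taken by name: *Alas1*, *Alas2*, *Alad*, *Uros*, *Urod*, *Cpox*, *Ppox* and *Fech* for synthesis, and *Hmox1* for breakdown. All 9 of them were among the 27267 genes listed and among the 13714 genes with enough reads to be tested. The tissue came from male mice of strain C57BL/6 at 4 weeks of age, 5 labelled wild type (WT) and 5 labelled *Mgp*-KO. The knockout removes matrix Gla protein, an inhibitor of bone morphogenetic proteins, from the whole animal, through a targeted allele carried by heterozygous breeders, and the labels name no treatment. Below, *Mgp*-KO stands for the libraries so labelled. Values are normalized counts, that is, reads on a gene after division by a size factor for the library. The question asked here was whether the transcripts of this pathway differed between the 2 groups.

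Heme is an iron-containing ring built in steps, the first and the last of them inside mitochondria. The first enzyme, δ-aminolevulinate (ALA) synthase, sets the pace and exists in a pair of forms, *Alas1* in all tissues and *Alas2* in developing red cells. Brown fat is packed with mitochondria, whose respiratory chain carries heme in its cytochromes. A piece of tissue taken whole also holds blood, so that *Alas2* and *Alas1* transcripts in it can come from different cells. In such bulk samples, fewer cells of a type and less RNA per cell cannot be told apart.

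The libraries held 9253793 to 22252260 reads on genes, and they fell into 2 sets along the replicate numbers. Replicates 1 to 3 of both groups held at least 19616366 reads, with 0.771% to 1.72% of them on mitochondrial ribosomal RNA. Replicates 4 and 5 held at most 13281873 reads, with 6.50% to 16.7% on mitochondrial ribosomal RNA. The part of these values in the results was not tested. *Mgp* itself was at 466 to 1146 normalized counts in the WT libraries and at 0 to 0.821 in those labelled *Mgp*-KO 1 to 3, but at 500.2 and 331 in those labelled *Mgp*-KO 4 and 5, which goes against their label. *Xist* and Y chromosome genes went against the male label of WT 2. All labels were kept, and the genotype effect on each of the 9 enzymes is also given within replicates 1 to 3 and within 4 and 5. The brown adipocyte marker *Ucp1*, the uncoupling protein of heat production, was present in every library, but at 38421 to 116019 normalized counts in WT and 2201 to 15641 in *Mgp*-KO. All *Mgp*-KO values of *Ucp1* were thus below all WT values, as for 2.11% of all tested genes. Skeletal muscle genes summed to 42954 in *Mgp*-KO 2 and 42619 in *Mgp*-KO 5 against at most 7388 in any other library.

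Across the pathway, *Uros* was the enzyme whose transcript separated the groups, lower in all 5 libraries labelled *Mgp*-KO than in all 5 WT libraries. Of all tested genes, 2.11% were likewise lower in all 5. The other 8 enzymes overlapped between the groups. *Alas1* instead followed the replicate sets, *Alas2* followed the globin transcripts of red cells, and *Hmox1* was high in a single library. When all 10 libraries were compared with limma, 0 of the 9 enzymes passed an adjusted p of 0.05, and 1 of 9, *Uros*, had an unadjusted p under 0.05. The share of all tested genes called in that comparison was 0.0656%. edgeR called 0 of 9, against 0.0219% of all genes, and DESeq2 called 1 of 9, *Uros*, against 2.26% of all genes. With a term for the replicate set in limma, 1 of 9 was called, again *Uros*, against 2.36% of all genes. Within replicates 1 to 3 it was 1 of 9, *Uros*, against 3.54%, and within replicates 4 and 5 it was 0 of 9 (0 at an unadjusted p under 0.05), against 0%. The median log2 fold change of the 9 enzymes over all libraries was -0.11, beside 0.03 for all tested genes.

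**Figure D1:**
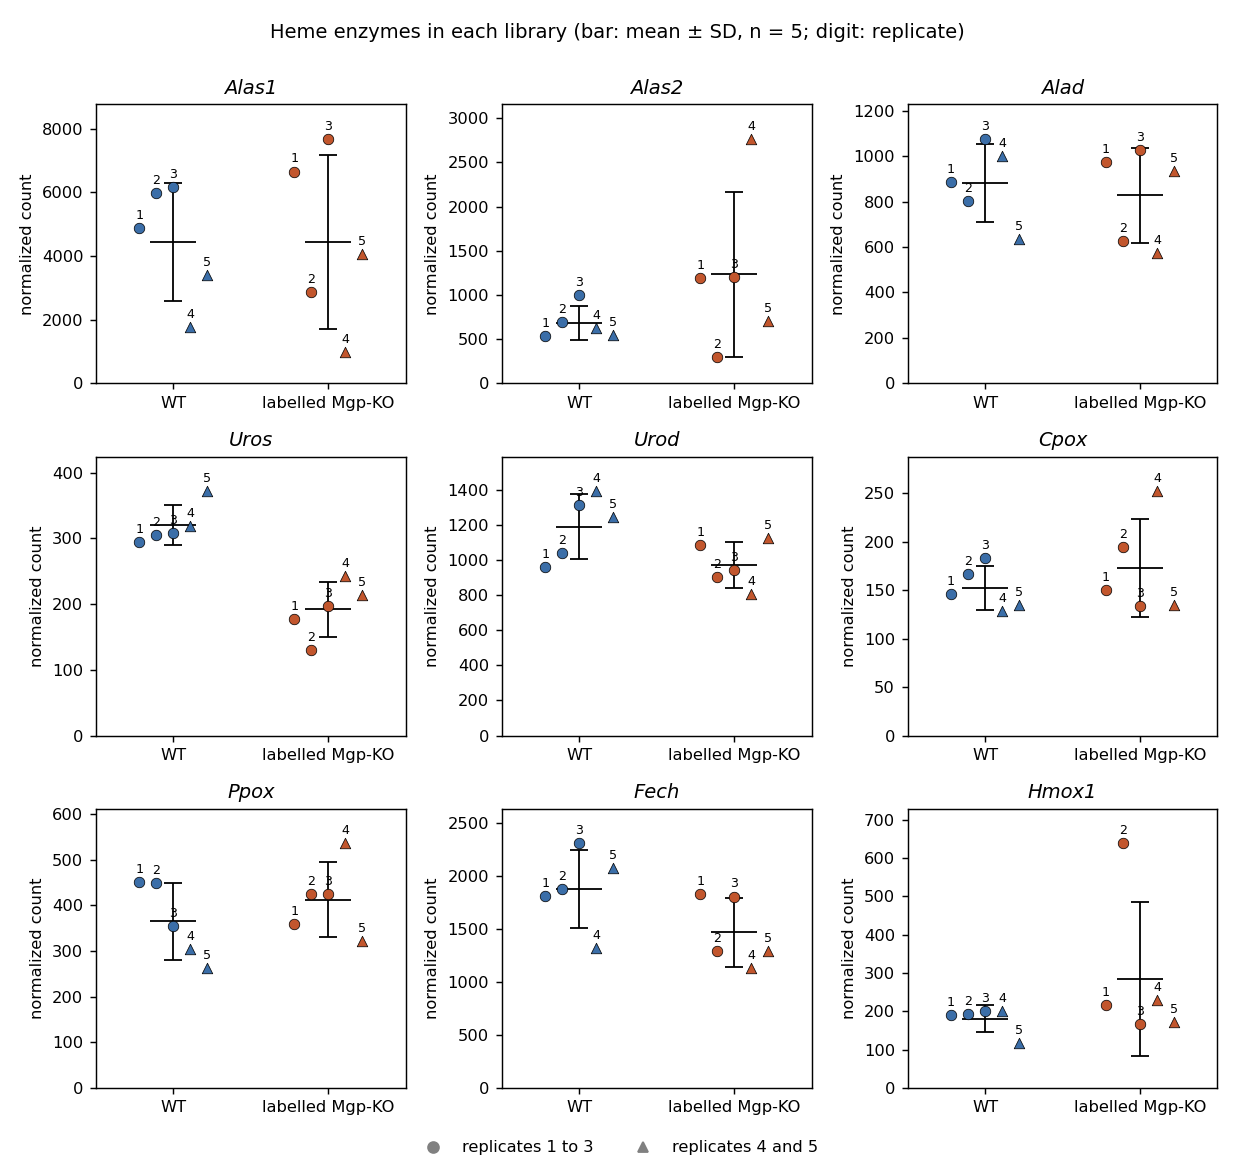
Normalized count (vertical axis) of each heme enzyme in the 5 WT and the 5 libraries labelled *Mgp*-KO; circles are replicates 1 to 3, triangles replicates 4 and 5, digits replicate numbers, and bars the mean ± SD. The *Uros* values of the groups lie apart (295 to 372 against 131 to 243), while those of the other 8 enzymes overlap. Among all tested genes, 2.11% are likewise lower in all *Mgp*-KO libraries.

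Set against the length of their exons, the transcripts differed over a wide range in the WT libraries. Levels per kilobase of exon (mean ± SD, n = 5) were highest for *Alas1* at 721 ± 301, followed by *Alad* at 471 ± 92.2 and *Urod* at 461 ± 71.0. The lowest were *Uros* at 89.4 ± 8.52, *Ppox* at 80.7 ± 18.7 and *Cpox* at 22.8 ± 3.39 per kilobase. Between them stood *Alas2* at 282 ± 79.6, *Fech* at 136 ± 26.6 and *Hmox1* at 103 ± 20.3. In this order each enzyme overlapped the next over the 5 WT libraries, except that *Alas2* (223 to 416) lay above *Fech* (95.3 to 167) and *Ppox* (58.3 to 99.8) above *Cpox* (19.4 to 27.5). The order was not the same in both sets. In WT 1 to 3 the mean of *Alas1*, 922, was far above those of *Alad* (494) and *Urod* (427), while in WT 4 and 5 it was 419, below *Urod* (511) and *Alad* (438). The exon lengths join the exons of all annotated transcripts, from 1751 bases for *Hmox1* to 13838 for *Fech*, and which of them are used in this tissue was not measured.

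*Alas1*, the ALA synthase of all tissues, is a gene of chromosome 9 (106233455 to 106248654, minus strand, GRCm38). It was at 4897, 5997, 6178, 1774 and 3402 normalized counts in WT 1 to 5. The values of *Mgp*-KO 1 to 5 were 6660, 2854, 7693, 987 and 4057. The groups covered one another, with means of 4450 ± 1860 in WT and 4450 ± 2743 in *Mgp*-KO (SD, n = 5 each). The log2 fold change, *Mgp*-KO minus WT, was -0.18 (95% interval -1.35 to 0.99; adjusted p = 0.943, limma), an interval too wide to exclude a large change in either direction. Its sign turned to 0.28 when *Mgp*-KO 4 was left out and to 0.38 without *Mgp*-KO 4 and 5, both not called.

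The replicate sets separated *Alas1* more than the labelled groups did. Its mean in WT was 5691 in replicates 1 to 3 and 2588 in replicates 4 and 5, and in *Mgp*-KO it was 5736 and 2522. In WT the sets did not overlap; in *Mgp*-KO they did, since *Mgp*-KO 2 lay below *Mgp*-KO 5. With genotype in the model, *Alas1* was lower in replicates 4 and 5 (log2 difference -1.30 ± 0.39, SE; adjusted p = 0.0222, limma). *Alas1* was the 1 of 9 enzymes called between the sets, where 38.2% of all tested genes were called, so that many genes differed there. Without WT 4 the adjusted p was 0.0737 (log2 difference -1.14) and without *Mgp*-KO 4 it was 0.0574 (-0.89). The sets also differ in depth and ribosomal share, and these cannot be told apart from any other difference between them. The genotype effect on *Alas1* within replicates 1 to 3 was -0.10 ± 0.35 (adjusted p = 0.887) and within 4 and 5 it was -0.30 ± 0.69 (adjusted p = 0.894). A difference of the genotype effect between the sets was called for 0 of 9 enzymes (0 at an unadjusted p under 0.05), against 0.00729% of all genes.

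*Nr1d1*, a clock gene that encodes the heme-binding repressor REV-ERBα, showed the sets more sharply. It was at 3362, 2919, 3809, 347 and 465 normalized counts in WT 1 to 5 and at 4122, 3532, 5366, 63.1 and 410.3 in *Mgp*-KO 1 to 5. All 6 libraries of replicates 1 to 3 were above all 4 libraries of replicates 4 and 5 (log2 difference -3.89, adjusted p = 0.000171, limma). *Nr1d2*, on the same list of regulators, was not called between the sets (log2 difference 0.33, adjusted p = 0.458, limma). *Mgp*-KO 4 was the lowest of the 10 libraries for both *Nr1d1* and *Alas1*. *Ppargc1a*, a coactivator known to raise *Alas1* in liver, was highest in the 2 libraries where *Alas1* was lowest, at 2737 in WT 4 and 1808 in *Mgp*-KO 4, against 627 to 1188 in the others. *Nrf1*, nuclear respiratory factor 1, was at 151 to 229 in WT and 181 to 366 in *Mgp*-KO. Neither *Ppargc1a* nor *Nrf1* passed the test between the groups or between the sets.

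**Figure D2:**
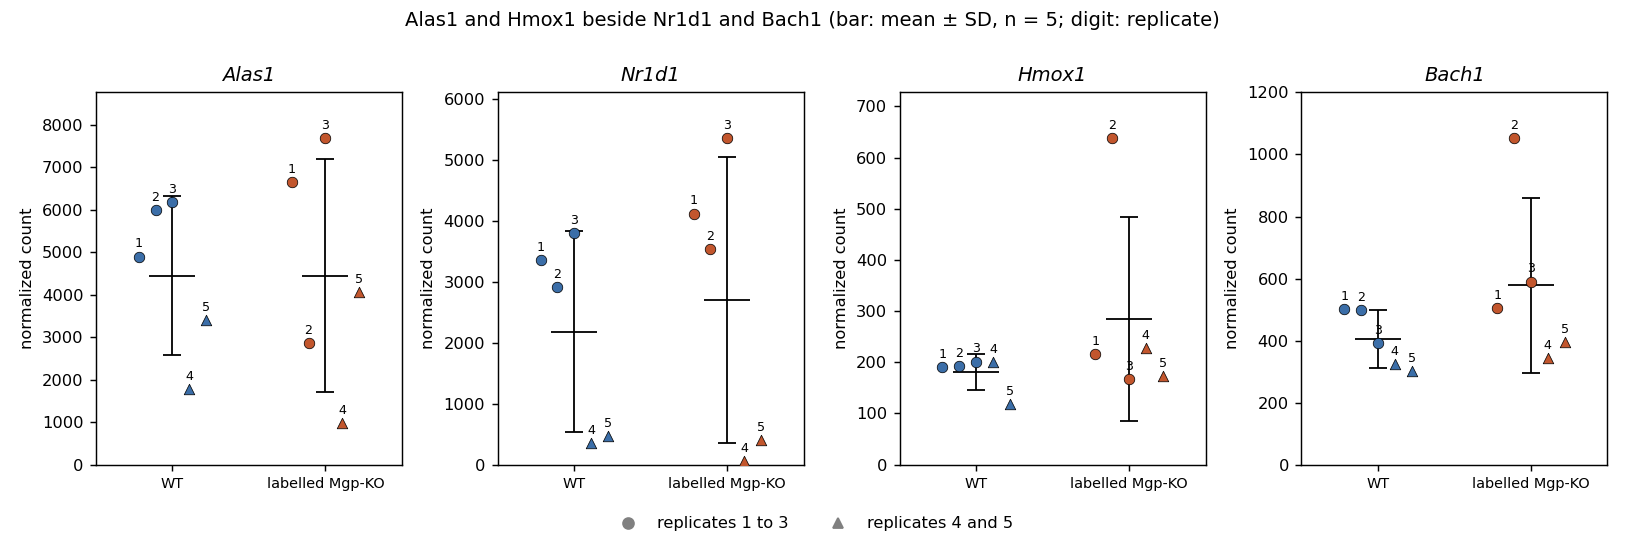
Normalized count (vertical axis) of *Alas1* and *Hmox1* beside *Nr1d1* and *Bach1* in the 2 groups; circles are replicates 1 to 3, triangles replicates 4 and 5, digits replicate numbers, and bars the mean ± SD (n = 5). *Nr1d1* falls from at least 2919 in replicates 1 to 3 to at most 465 in replicates 4 and 5, and *Hmox1* and *Bach1* are both highest in *Mgp*-KO 2.

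The start sites of both ALA synthases and of *Uros* are shown because these 3 genes carried the differing patterns. Sequences are from RefSeq (GRCm38.p6), which had windows before the start for 7 of the 9 enzymes, and are written 5′ to 3′ on the strand of the gene. The 250 bases before each start were searched on both strands for 4 motifs: GCGCATGC (the core bound by NRF1), AGATAA and TGATAA (forms of the site bound by GATA factors) and CACGTG (an E-box). Capitals mark the matches. They occurred in 2.26%, 9.99%, 7.94% and 6.02% of all 32851 windows. A match is a string of letters in a window, and no binding was measured. *Alas1* held GCGCATGC from 195 to 188 bases before its start at 106247730 on chromosome 9, within an exon of a longer annotated transcript, and 30 bases around it are given (chr9:106247907-106247936, minus strand). *Alas2* held AGATAA, read on the opposite strand as TTATCT, from 86 to 81 bases before its start at 150547417 on chromosome X, in the 208 bases up to the first annotated exon (chrX:150547167-150547374, plus strand).
*Alas1*: ccgcacccaagGCGCATGCgcggcggtcac
*Alas2*: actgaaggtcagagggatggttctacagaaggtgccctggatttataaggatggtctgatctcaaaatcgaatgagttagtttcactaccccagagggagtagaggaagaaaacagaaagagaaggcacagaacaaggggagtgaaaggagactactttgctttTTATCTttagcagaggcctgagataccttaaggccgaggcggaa

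The *Alas2* window held no GCGCATGC, and neither window of *Alas1* held AGATAA or TGATAA. Enzymes not shown held matches too: CACGTG stood in both *Alad* windows and in that of *Urod*. The *Cpox* window held TGATAA, read as TTATCA. RefSeq gave windows for a pair of *Uros* starts on chromosome 7, both inside the GENCODE span of the gene. Before the upstream one, at 133709295, CACGTG stood from 250 to 245 bases away (chr7:133709296-133709545, minus strand), and most of this window is also the first exon of *Bccip*, a gene read in the other direction. Before the downstream one, at 133702500, TGATAA, read as TTATCA, stood from 68 to 63 bases away, and 30 bases around it are given (chr7:133702550-133702579, minus strand).
*Uros*, upstream start: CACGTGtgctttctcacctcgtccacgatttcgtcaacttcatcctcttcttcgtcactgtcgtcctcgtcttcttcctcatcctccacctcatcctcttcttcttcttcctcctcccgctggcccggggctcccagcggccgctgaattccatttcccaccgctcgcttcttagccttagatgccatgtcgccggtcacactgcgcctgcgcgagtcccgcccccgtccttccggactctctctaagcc
*Uros*, downstream start: ctccctcagccTTATCAgtgacagagggct

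*Alas2*, the ALA synthase of red cell precursors, lies on chromosome X (150547375 to 150570638, plus strand). It was at 536, 690, 1001, 620 and 542 normalized counts in WT 1 to 5. In *Mgp*-KO 1 to 5 it was at 1190, 297, 1201, 2768 and 708. *Mgp*-KO 4 was the highest library and *Mgp*-KO 2 the lowest, so the WT values lay inside the range of the *Mgp*-KO values. The means were 678 ± 191 in WT and 1233 ± 937 in *Mgp*-KO (SD, n = 5 each). The log2 fold change was 0.55 (95% interval -0.49 to 1.58; adjusted p = 0.741, limma) and moved with single libraries, to 0.17 without *Mgp*-KO 4 and to 0.97 without *Mgp*-KO 2. edgeR gave 0.85 and DESeq2 0.86 over all libraries, neither called. It was 0.07 ± 0.53 within replicates 1 to 3 (adjusted p = 0.954) and 1.27 ± 0.61 within 4 and 5 (adjusted p = 0.679). Exons of *Apex2*, on the opposite strand, cover 12.9% of the *Alas2* exons, and if strand was not used, the counting would drop reads there as ambiguous. *Apex2* was lowest, at 108, in the library where *Alas2* was highest.

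*Alas2* moved with the transcripts of circulating red cells. The adult globins *Hba-a1*, *Hba-a2*, *Hbb-bs* and *Hbb-bt* together were at 5900, 8056, 13863, 19317 and 12047 normalized counts in WT 1 to 5. In *Mgp*-KO 1 to 5 they were at 15065, 2712, 12983, 98679 and 25689. The library highest in *Alas2*, *Mgp*-KO 4, was also the highest in globins, and the lowest, *Mgp*-KO 2, was the lowest in both. After each set's mean was subtracted, the 5 genes most like *Alas2* over the 10 libraries (Pearson r of log2 values, a description over libraries that share sets and depth) were *Fam46c* (0.997), *Hba-a2* (0.98), *Hba-a1* (0.98), *Laptm5*, a gene of blood cells (0.98), and *Hbb-bs* (0.98). *Alas1* and *Alas2* had an r of -0.11 on the same measure.

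Per unit of globin, the sets lay apart. *Alas2* stood at 72.2 to 109 per 1000 globin counts in the 6 libraries of replicates 1 to 3 and at 27.6 to 44.96 in the 4 libraries of replicates 4 and 5, with WT and *Mgp*-KO in each range. Per kilobase of exon, *Alas1* was 2.18 to 3.74 times *Alas2* in replicates 1 to 3. In replicates 4 and 5 the ratio was 1.11 to 2.44, except in *Mgp*-KO 4, where *Alas1* stood at 0.139 of *Alas2*. Of the 20 red cell genes of the list used, 17 were listed and 13 tested. Their sum was 7088 to 20941 in WT and 3936 to 102531 in *Mgp*-KO, and none was at 0 in all libraries. Genes of early precursors stayed low, with *Gata1* at most 5.86 and *Klf1* at most 3.24 normalized counts in any library, near the 2.15 to 5.19 that 3 reads stand for. Of the 13 tested red cell genes 0 were called between the groups in limma, over all libraries, with the set term or within either set (2 at an unadjusted p under 0.05 over all libraries), and 0 by edgeR or DESeq2. Between the sets the 4 globins and *Bpgm*, which makes the red cell metabolite that loosens oxygen from hemoglobin, were higher in replicates 4 and 5.

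**Figure D3:**
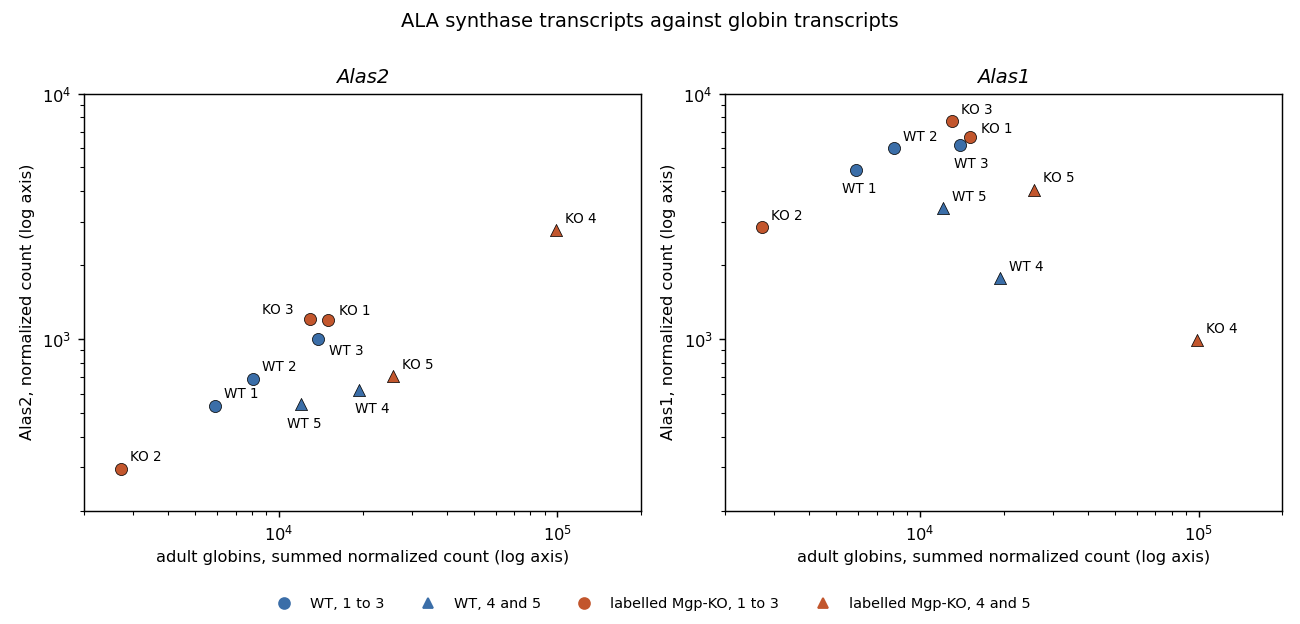
Normalized counts of *Alas2* (left) and *Alas1* (right) against the summed normalized count of 4 adult globin genes, both axes logarithmic, with 1 point for each library; circles are replicates 1 to 3 and triangles replicates 4 and 5. *Alas2* and globin are both lowest in *Mgp*-KO 2 (297 for *Alas2*) and both highest in *Mgp*-KO 4 (2768), while *Alas1* is lowest in *Mgp*-KO 4 (987).

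*Alad*, which joins ALA units into porphobilinogen, (chromosome 4, 62509169 to 62519918, minus strand) was at 888, 805, 1078, 1003 and 637 normalized counts in WT 1 to 5 and at 975, 629, 1026, 575 and 936 in *Mgp*-KO 1 to 5. The groups overlapped almost wholly (log2 fold change -0.11, 95% interval -0.59 to 0.38; adjusted p = 0.906, limma), and without *Mgp*-KO 4 the value was 0.01. It was -0.10 ± 0.21 within replicates 1 to 3 and -0.12 ± 0.39 within 4 and 5, neither called.

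*Uros*, uroporphyrinogen III synthase, closes the linear tetrapyrrole into the ring that heme keeps. It lies on chromosome 7 (133686243 to 133710072, minus strand). It was at 295, 305, 309, 318 and 372 normalized counts in WT 1 to 5. In *Mgp*-KO 1 to 5 it was at 177, 131, 197, 243 and 213. The highest *Mgp*-KO library, number 4, stayed below the lowest WT library, number 1. The means were 320 ± 30.5 in WT and 192 ± 41.9 in *Mgp*-KO (SD, n = 5 each), and 290 of the 13714 tested genes, 2.11%, were likewise lower in all *Mgp*-KO than in all WT libraries. Behind these values stood 150 to 420 reads per library.

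The log2 fold change of *Uros* was -0.76 ± 0.19 (SE; 95% interval -1.17 to -0.34), that is, 0.592 of the WT level, with an unadjusted p of 0.00192 and an adjusted p of 0.156 in limma. An exact permutation of 5 against 5 libraries gave a two-sided p of 0.00794, unadjusted, the smallest it can give. Any gene whose groups do not overlap reaches this value, so it adds nothing to that separation. With the set term the same difference had an SE of 0.15 and an adjusted p of 0.0269 (limma). Within replicates 1 to 3 it was -0.86 ± 0.17 (adjusted p = 0.0445, limma) and within replicates 4 and 5 it was -0.59 ± 0.33 (adjusted p = 0.679, limma), lower in both sets. The difference between these 2 effects was 0.27 ± 0.30 (adjusted p = 0.725, limma). DESeq2 gave -0.74 with an adjusted p of 0.0163, and edgeR gave -0.74 with an adjusted p of 0.149. Without *Mgp*-KO 4 and 5, whose *Mgp* reads go against their label, it was -0.94 (adjusted p = 0.0376, limma). Over all 27 other settings the value stayed between -0.94 and -0.59, and 7 of them passed the threshold. The call was narrow. With the set term it was lost on leaving out WT 1 (adjusted p = 0.0729), WT 2 (0.0866), WT 3 (0.0899), WT 5 (0.0667), *Mgp*-KO 1 (0.0612), *Mgp*-KO 3 (0.0505) or *Mgp*-KO 5 (0.0509), while it held without WT 4, *Mgp*-KO 2 or *Mgp*-KO 4. Within replicates 1 to 3 it held only without *Mgp*-KO 2 and was lost without WT 1 (0.152), WT 2 (0.182), WT 3 (0.131), *Mgp*-KO 1 (0.0954) or *Mgp*-KO 3 (0.0651).

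Some markers of the brown adipocyte were lower in *Mgp*-KO too. Of 15 listed and tested, 3 were lower with the set term and 0 higher (limma), against 2.36% of all genes called, namely *Ucp1* (log2 fold change -2.70, adjusted p = 0.0127), *Dio2*, which activates thyroid hormone (-3.35, adjusted p = 0.0228), and *Elovl3*, a fatty acid elongase of active brown fat (-3.64, adjusted p = 0.0104). Within replicates 1 to 3, 2 of 15 were called, against 3.54% of all genes, *Ucp1* (adjusted p = 0.0454) and *Elovl3* (0.0313), both lower. Over all libraries without the term 0 of 15 were called (5 at an unadjusted p under 0.05), with an adjusted p of 0.0601 for *Ucp1*, 0.363 for *Dio2* and 0.254 for *Elovl3*, and within replicates 4 and 5 it was 0 of 15 as well (3 at an unadjusted p under 0.05; limma). Without the term edgeR called 0 of 15, against 0.0219% of all genes, and DESeq2 called 2 of 15, against 2.26%. The list summed to 221248 to 420858 in WT and 156162 to 311623 in *Mgp*-KO, its median log2 fold change was -0.36, and no marker of it was at 0 in all libraries. The part of these values in the *Uros* result was not tested. *Bccip*, which starts beside *Uros* and shares 0 exon bases with it, was at 753 ± 282 in WT and 668 ± 203 in *Mgp*-KO (log2 fold change -0.15, adjusted p = 0.898, limma); it was named after its values were seen.

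**Figure D4:**
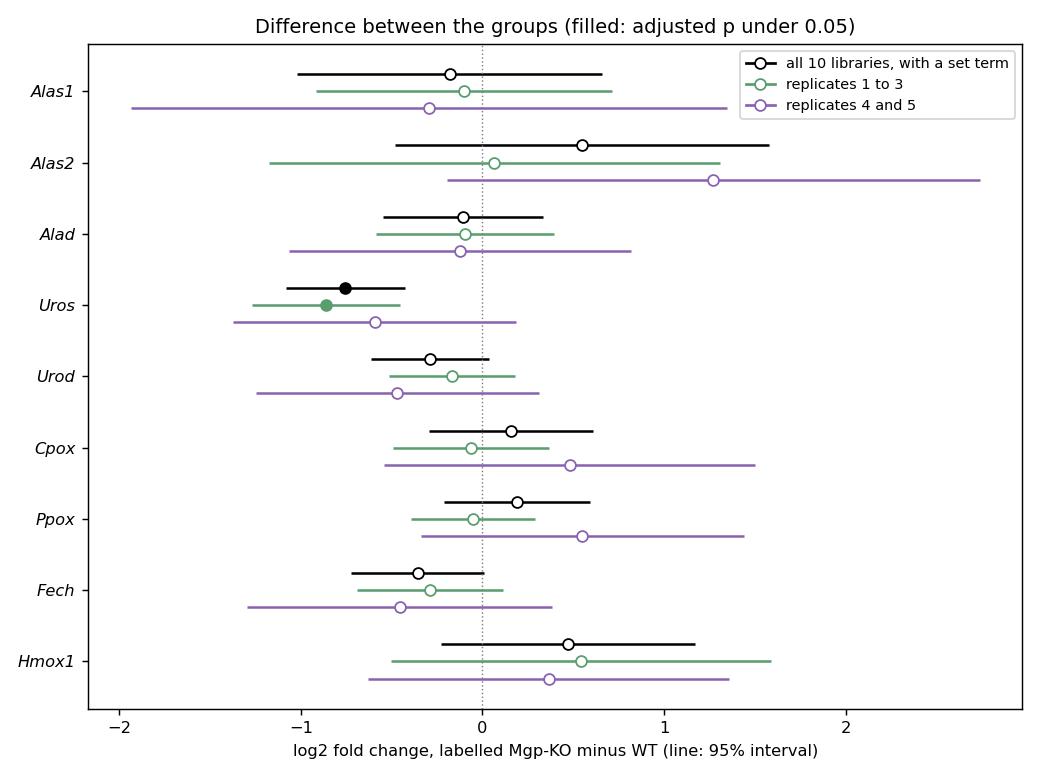
Log2 fold change (horizontal axis, *Mgp*-KO minus WT, with the 95% interval) of each heme enzyme from limma over all 10 libraries with a set term, within replicates 1 to 3 and within replicates 4 and 5; filled points passed an adjusted p of 0.05. *Uros* is at -0.76, -0.86 and -0.59, with an interval below 0 in the first 2 and across 0 within replicates 4 and 5, and all intervals of the other 8 enzymes cross 0.

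The next enzymes trim and oxidize the ring. *Urod* lies on chromosome 4 (116989965 to 116994413, minus strand), *Cpox* on chromosome 16 (58670292 to 58717636, plus strand) and *Ppox* on chromosome 1 (171275990 to 171281186, minus strand). *Urod*, which removes carboxyl groups from it, was at 961, 1044, 1314, 1397 and 1249 normalized counts in WT 1 to 5 and at 1087, 903, 947, 806 and 1129 in *Mgp*-KO 1 to 5. The groups overlapped through WT 1 and 2 (log2 fold change -0.29, 95% interval -0.66 to 0.09; adjusted p = 0.601, limma), with -0.17 ± 0.15 within replicates 1 to 3 and -0.47 ± 0.33 within 4 and 5. *Cpox*, coproporphyrinogen oxidase, was at 129 to 183 in WT and at 151, 194, 134, 253 and 135 in *Mgp*-KO 1 to 5, with *Mgp*-KO 4 highest. Its log2 fold change was 0.16 over all libraries (95% interval -0.32 to 0.63; adjusted p = 0.849, limma), -0.06 ± 0.18 within replicates 1 to 3 and 0.48 ± 0.43 within 4 and 5. *Ppox*, protoporphyrinogen oxidase, was at 451, 449, 354, 305 and 263 in WT 1 to 5 and at 358, 424, 424, 536 and 321 in *Mgp*-KO 1 to 5. Its log2 fold change was 0.19 over all libraries (95% interval -0.27 to 0.65; adjusted p = 0.812, limma), -0.05 ± 0.15 within replicates 1 to 3 and 0.55 ± 0.37 within 4 and 5. For both enzymes the values of replicates 1 to 3 were near 0 and none of these differences was called. Exons of *B4galt3* cover 17.5% of the *Ppox* exons on the opposite strand.

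*Fech*, ferrochelatase, inserts the iron and so completes heme. The gene lies on chromosome 18 (64452914 to 64490251, minus strand). It was at 1808, 1876, 2311, 1319 and 2075 normalized counts in WT 1 to 5. In *Mgp*-KO 1 to 5 it was at 1828, 1296, 1808, 1128 and 1290. WT 4, at 1319, lay among the *Mgp*-KO libraries, and *Mgp*-KO 1 and 3 lay at the level of WT 1. The log2 fold change was -0.36 ± 0.21 (95% interval -0.81 to 0.10; adjusted p = 0.596, limma), with negative values within replicates 1 to 3 (-0.29 ± 0.17) and within 4 and 5 (-0.46 ± 0.35). With the set term its adjusted p was 0.267 (limma).

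*Hmox1*, heme oxygenase 1, opens the ring and frees its iron, and is known to be induced by heme and by oxidative stress. It lies on chromosome 8 (75093621 to 75100589, plus strand). It was at 191, 192, 201.4, 200.8 and 118 normalized counts in WT 1 to 5. In *Mgp*-KO 1 to 5 it was at 216, 639, 167, 228 and 172. *Mgp*-KO 2 stood far above the other 9 libraries, all of which were between 118 and 228. The log2 fold change was 0.47 (95% interval -0.28 to 1.22; adjusted p = 0.681, limma), and without *Mgp*-KO 2 it was 0.13 (adjusted p = 0.891, limma). It was 0.54 ± 0.45 within replicates 1 to 3 and 0.37 ± 0.42 within 4 and 5, neither called. The reads behind *Hmox1* ranged from 68 in WT 5 to 835 in *Mgp*-KO 2.

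The library with high *Hmox1* differed in other ways too. In *Mgp*-KO 2, *Bach1*, the heme-sensing repressor of *Hmox1*, was at 1054 against 303 to 590.4 in the other libraries, and *Mafk*, its partner, at 1100 against 194 to 589. Of the macrophage markers, *Cd163*, the hemoglobin scavenger receptor, was at 371 against 128 to 264, and *Mertk*, a receptor for dying cells, at 860 against 157 to 523. Both were picked after their values were seen, and the rest of the list did not go with them: *Mrc1* (234) and *Fcgr1* (13.004) were lowest of all 10 libraries there, and *Csf1r* (311), *Cd68* (74.2) and *Adgre1* (46.7) lay inside the range of the other libraries. The 15 macrophage markers summed to 3014 there against 2004 to 3082 in WT. Of these 15 markers 11 were tested and 0 were called between the groups in limma, over all libraries, with the set term or within either set (1 at an unadjusted p under 0.05 over all libraries). DESeq2 with the set term called 1 of the 11, *Mertk*, against 7.42% of all genes. *Marco*, *Vsig4* and *Spic*, which mark particular resident macrophages, were at most 5.86 in any library. The skeletal muscle genes named above were also high in this library, and *Plin1*, the lipid droplet coat protein, was lowest at 1929. The part of these values in *Hmox1* was not tested. The 5 genes most like *Hmox1* after set means were subtracted were *Tsc22d3* (r = 0.97), *Obsl1* (0.96), *Foxo3* (0.95), *Sf1* (0.95) and *AC166323.1* (0.95), and *Mgp*-KO 2 was the highest library for the first 4 of them. For *Alas1* they were *Myo5b* (0.97), *Vnn3* (0.97), *Qrsl1* (0.96), *Tbl3* (0.96) and *Grtp1* (0.96).

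The list of other heme genes covered the later steps of breakdown, transport of heme and its precursors, and iron-sulfur partners of the pathway. Of its 25 genes 23 were tested. Between the groups over all libraries 0 passed in limma (2 at an unadjusted p under 0.05), against 0.0656% of all genes. edgeR called 0, against 0.0219%, and DESeq2 called 1, against 2.26%. With a set term DESeq2 called 3 of the list, against 7.42% of all genes, and edgeR called 1, where 341 of all 13714 tested genes were called. With the set term in limma 1 passed, against 2.36% of all genes, *Iba57*, a mitochondrial factor that assembles iron-sulfur clusters. It was at 398, 383, 440, 421 and 415 normalized counts in WT 1 to 5 and at 246, 213, 297, 176 and 231 in *Mgp*-KO 1 to 5. *Iba57* was thus lower in all *Mgp*-KO than in all WT libraries (log2 fold change -0.84 ± 0.15, adjusted p = 0.0178 with the set term, limma), as were 2.11% of all tested genes. Over all libraries without the term its adjusted p was 0.0741, and it was -0.70 ± 0.16 within replicates 1 to 3 (adjusted p = 0.0564) and -1.05 ± 0.33 within 4 and 5 (adjusted p = 0.679). The list's median log2 fold change was -0.16, beside 0.03 for all tested genes. The 4 most abundant of the list, *Tspo*, a porphyrin-binding protein of the outer mitochondrial membrane, *Slc25a39*, a mitochondrial glutathione carrier, *Tmem14c*, a transporter of protoporphyrinogen, and *Clpx*, an unfoldase that acts on ALA synthase, were not called between the groups. All 4 were lowest in *Mgp*-KO 4, at 1543, 1167, 1034 and 960 normalized counts in that order. Between the replicate sets *Slc25a28*, *Slc25a39*, *Abcb8*, *Tspo* and *Fdxr* were lower and *Abcg2*, *Pgrmc1* and *Glrx5* higher in replicates 4 and 5, 8 of 23 genes, a share near the 38.2% of all tested genes called there. *Hmox2*, the constitutive heme oxygenase, was at 936 ± 155 in WT and 938 ± 292 in *Mgp*-KO (adjusted p = 0.965, limma). *Slc25a37*, the iron importer of red cell mitochondria, was highest in *Mgp*-KO 4 at 894, as *Alas2* was, and between 181 and 552 elsewhere.

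Regulators and targets around the pathway gave few calls. Of 13 regulators tested, 1 was called within replicates 1 to 3, against 3.54% of all genes, *Mafk*, which was at 299.7 to 318 in WT and 568 to 1100 in *Mgp*-KO there (log2 fold change 1.20, adjusted p = 0.0477, limma), and 0 were called over all libraries (0 at an unadjusted p under 0.05) or with the set term (2), nor any by edgeR or DESeq2. Between the sets *Nr1d1* and *Bach1* were lower and *Foxo1* and *Nfe2l2*, which encodes NRF2, higher in replicates 4 and 5, 4 of 13 genes beside the 38.2% of all genes called there. Of 9 tested genes that NRF2, a stress-response factor, is known to drive together with *Hmox1*, 1 was called with the set term, against 2.36% of all genes, *G6pdx*, which was lower in *Mgp*-KO (log2 fold change -0.995 ± 0.22, adjusted p = 0.0420, limma), with -0.74 within replicates 1 to 3 and -1.38 within 4 and 5, neither called. The other abundant members, *Prdx1*, *Txnrd1* and *Gsta4*, were not called between the groups, and *Gclc*, *Txnrd1* and *G6pdx* were lower in replicates 4 and 5 than in 1 to 3. Of 13 tested genes on a list of proteins that bind heme and their partners, 0 were called over all libraries in limma (4 at an unadjusted p under 0.05), 0 in edgeR and 1 in DESeq2 (against 2.26% of all genes), *Cyb5b*. It encodes the cytochrome b5 of the outer mitochondrial membrane and was at 3434 to 6333 normalized counts in WT and 1734 to 3067 in *Mgp*-KO. The groups thus did not overlap, with 2.11% of all tested genes likewise lower in all *Mgp*-KO libraries. With the set term 0 were called in limma and 3 in DESeq2, *Cyb5b*, *Por* and *Ptgs1*, against 7.42% of all genes in DESeq2. Within replicates 1 to 3 limma called 1 of 13, against 3.54% of all genes, *Cyb5a*, cytochrome b5, which was higher in *Mgp*-KO (log2 fold change 0.84, adjusted p = 0.0378, limma) but had a value of -0.37 within replicates 4 and 5. The 4 most abundant, *Cyc1*, *Sdhd*, *Sdhc* and *Cat*, were not called between the groups.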

How the data were processed

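Total RNA of iBAT from 10 mice was sequenced as single reads. Per the paper's methods and the submitters' processing notes, the authors mapped reads to mm10 with STAR 2.5.3a, counted them per gene and divided the counts by DESeq2 1.38.3 size factors. What was deposited is thus a signal in normalized counts, at 0 or above for every gene. The annotation release and strand setting are not given in the sources used here. Dividing by the smallest step of each library gave whole reads for 100% of values, within 4.23e-07 reads. A count of 0 allows up to 3 reads, or 2.15 to 5.19 normalized counts, for counting error only, since reads carry no molecular identifiers.

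Genes with a mean of at least 10 normalized counts were tested as log2(value + 1) with limma 3.58.1 (R 4.3.3, mean-variance trend, Benjamini-Hochberg adjustment over all tested genes, threshold 0.05); fold changes of low genes are understated on this scale. Settings tried were pseudocounts of 0.5 and 10, no filter or a mean of at least 50, no trend, a set term, each set alone, a replicate block, equal upper quartiles, edgeR 4.0.16 and DESeq2 1.42.0 on the recovered reads, and libraries left out; leaving libraries out of the set-term, within-set and between-set fits was added after the data were seen. Each sample is a separate mouse by the methods. Positions and exon lengths come from GENCODE for GRCm38, sequences from RefSeq. The 9 genes and all lists were chosen with earlier results of these data known. Named are the 9 enzymes, from each other list the genes past the threshold or among the 4 most abundant or discussed beside an enzyme, and the 5 genes most like *Alas1*, *Alas2* and *Hmox1*; genes discussed beside an enzyme were picked after their values were seen. The tests were also run on simulated data with known answers.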

Additional observations from a re-analysis of the deposited data

Results flagged for a closer look

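Each of the 9 enzymes was examined in each group of 5 libraries for a library far from the others (gap to the nearest library over the group's range, with a critical value of 0.71), which chance passes in about 1 of 20 groups. Of 18 such groups 2 passed, both for *Hmox1*. In the *Mgp*-KO group, *Mgp*-KO 2 stood at 639 normalized counts, with a gap of 0.87 of the range above the next library. In the WT group, WT 5 stood at 118, with a gap of 0.876 of the range below the next library, and this value rests on 68 reads.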

How the results depend on the processing

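The number of enzymes past the threshold was 0 over all libraries and 1, *Uros* in each case, under 7 of 27 other settings. These were limma with a set term (log2 fold change -0.76), within replicates 1 to 3 (-0.86) and without both *Mgp*-KO 4 and 5 (-0.94), edgeR with a set term (-0.75), and DESeq2 plain (-0.74), with a set term (-0.75) and with the replicate block (-0.76). With each library left out of the comparison of all libraries the number of enzymes called was 0 throughout, and *Uros* ranged from -0.85 to -0.63. With the set term it ranged from -0.82 to -0.65 and was called in 3 of 10 such fits, and within replicates 1 to 3 from -0.99 to -0.69, called in 1 of 6. The difference of *Alas1* between the sets ranged from -1.67 to -0.89. With 1 library left out, *Alas1* ranged from -0.48 to 0.28 and *Alad* from -0.22 to 0.013. Signs turned for *Alas1* without *Mgp*-KO 4 (0.28), without *Mgp*-KO 4 and 5 (0.38) and in DESeq2 (0.000248), for *Alad* without *Mgp*-KO 4 (0.013), and within replicates 1 to 3 for *Cpox* (-0.062) and *Ppox* (-0.053); the cause was not tested. Apart from these and the calls of *Uros* above, the 9 enzymes kept their sign and their side of the threshold under these settings. The methods speak of pairs of mice without saying what a pair shares. To check this, log2 values less the mean of their group were correlated between WT and *Mgp*-KO libraries over all tested genes. Same-numbered libraries correlated at 0.527, 0.056, 0.327, 0.523 and 0.514 (mean 0.390), but libraries of other numbers in the same set did so as much (mean 0.416). With the mean of each group within each set subtracted instead, the mean of same-numbered libraries was -0.022. With number 2 at 0.056, the numbers were not taken to pair the samples. With the replicate block the count of all genes called was 270 in limma, 222 in edgeR and 921 in DESeq2, and *Uros* had a value of -0.76 in limma (adjusted p = 0.0546). Depth limits the lowest values most, such as *Cpox* with 78 reads in WT 5.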

Other observations

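Of the list of proteins that bind heme and their partners, *Cycs*, cytochrome c, differed between the replicate sets, at 86.4 to 126 normalized counts in replicates 1 to 3 and 1012 to 1429 in replicates 4 and 5 (log2 difference 3.45), with both groups in each range. *Por*, the flavoprotein that feeds electrons to heme oxygenase and cytochromes P450, was at 2829 to 6000 in WT and 1098 to 4014 in *Mgp*-KO (log2 fold change -0.90 ± 0.22, adjusted p = 0.0596 with the set term, limma), with -0.76 within replicates 1 to 3 and -1.10 within 4 and 5. *Abcg2*, an exporter of porphyrins, was at 208 to 739 in WT and 333 to 1237 in *Mgp*-KO (log2 fold change 0.88 ± 0.24, adjusted p = 0.0815 with the set term, limma), with 0.90 within replicates 1 to 3 and 0.86 within 4 and 5.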
